A study of Mus musculus with 12 samples.

Results

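Genes that were high in mouse epiblast-like cells (EpiLC) and in none of the embryonic stem cell (ESC) groups of the series are described here. They were chosen by measured level on the scale log2(FPKM + 1), where FPKM is the number of fragments scaled by transcript length and library size. A member had a mean in EpiLC at least 1.5 log2 units above the highest of the 3 ESC group means, and a mean in Sirt1KO ESC less than 0.3 above that in wild-type ESC. Of 23063 named loci outside chromosome Y, 111 met the first condition and 53 met both. Of these 53, 16 are loci of small RNAs (microRNAs and small nucleolar RNAs) and 37 are other genes, of which 2610037D02Rik is a long noncoding RNA and the others code for proteins.

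The series holds 12 libraries of polyadenylated RNA from C57 Bl/6J mouse cells, with 3 in each of 4 groups. EpiLC were wild-type cells grown on fibronectin for 48 h in a medium with 1% serum replacement, to which Activin A at 20 ng/ml and Fgf2 at 12 ng/ml were added. Sirt1KO Otx2KD ESC were labelled as knockout for Sirt1 with a knockdown of Otx2, Sirt1KO ESC as knockout for Sirt1, and wild-type ESC as carrying neither change. All 3 ESC groups are described as kept on gelatin without serum, with LIF and inhibitors of GSK3 (CHIR99021 at 3 uM) and of MEK (PD0325901 at 1 uM). How Sirt1 was deleted, by what means Otx2 was lowered, and whether a line is 1 clone is not given in the labels. Nothing in them says that replicates came from separate cultures, so the p-values below measure only the spread between these libraries, which may be technical.

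ESC in this medium stand for the naive epiblast of the blastocyst, and EpiLC for the epiblast shortly after implantation, when cells stop self-renewing in the naive state and become able to form the germ layers and germ cells. Otx2 is a homeobox transcription factor that helps to drive this exit from the naive state and redirects Oct4 (encoded by Pou5f1) to new enhancers. Sirt1 is a nuclear deacetylase whose substrates include transcription factors.

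Sirt1 had 33.2 ± 1.24 FPKM in EpiLC, 15.6 ± 0.492 in Sirt1KO Otx2KD, 15.5 ± 0.196 in Sirt1KO and 25.8 ± 0.412 in wild-type ESC (SD, n = 3 each). The lower level in both knockout groups is that of the whole locus, and which part was deleted is not given. Otx2 had 100.2 ± 3.45 FPKM in EpiLC, 6.07 ± 0.401 in Sirt1KO Otx2KD, 27.0 ± 6.36 in Sirt1KO and 7.38 ± 0.458 in wild-type ESC. The summed level of 19 naive pluripotency genes was 1154 to 1181 FPKM in EpiLC and 2342 to 3220 in the 9 ESC libraries, and that of 31 primed markers was 2753 to 2879 in EpiLC and 1098 to 1756 in the ESC libraries. Primitive endoderm markers moved with EpiLC as well: the summed level of 16 of them was 61.5 to 61.9 FPKM in EpiLC and 25.2 to 43.8 in the ESC libraries, 7 of the 8 tested were higher in EpiLC than in wild-type ESC, and 9 of the 16 were under 1 FPKM in all EpiLC libraries. Of the 16, Gata4 averaged 1.45 FPKM in EpiLC, 1.77 in Sirt1KO Otx2KD and 0.445 in wild-type ESC. Sox17 averaged 0.131 FPKM in EpiLC and 0.203 in wild-type ESC. The part of primitive endoderm markers in the results was not tested. Summed levels of trophoblast, mesendoderm and neural markers were 29.2 to 31.6, 18.5 to 19.6 and 391 to 406 FPKM in EpiLC. In the ESC libraries they were 80.8 to 102, 64.5 to 93.7 and 479 to 767 FPKM. None of these marker genes is a member. No fragment counts are given, and depth relative to wild-type ESC replicate 1, estimated from the spacing of low values, ran between 0.767 and 1.33. The median tested gene of chromosome 8 stood 0.40, 0.36 and 0.46 log2 units above wild-type ESC in EpiLC, Sirt1KO Otx2KD and Sirt1KO, and that of chromosome 11 stood 0.46, 0.39 and 0.49 below. The Y-linked gene Eif2s3y averaged 4.52 FPKM in EpiLC, 0.417 in Sirt1KO Otx2KD, 0.0961 in Sirt1KO and 28.9 in wild-type ESC, and the part of this difference in the results below was not tested. With chromosome medians removed from each library, 54 loci met the rule, 48 of them shared with the 53 and 33 with the 37 genes. None of the 37 genes lies on chromosome 8, which holds 5.52% of loci tested. Bcl11a, Grb10 and Ramp3 lie on chromosome 11 (8.11% of the 37, beside 8.44% of loci tested). The chromosome 8 median of Sirt1KO over wild-type ESC, 0.46, is above the difference that the rule allows between these groups. That of chromosome 11, -0.49, is within it. The rule itself therefore works against genes of chromosome 8, and the counts by chromosome are descriptions.

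Among the small RNA members are microRNAs of clusters known from pluripotent cells: miR-302d and miR-367 of the miR-302 cluster, miR-17, miR-18a and miR-19a of the miR-17-92 cluster, and miR-20b and miR-363 of the related cluster on chromosome X. A microRNA pairs with its targets mainly through its seed, bases 2 to 8, which is in capitals in the mature sequences below, given from 5′ to 3′ as RefSeq lists them on build GRCm38.p6. They are shown because they fall into seed groups that cross the clusters.
miR-17-5p: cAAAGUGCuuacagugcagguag
miR-20b-5p: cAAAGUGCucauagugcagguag
miR-302d-3p: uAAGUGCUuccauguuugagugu
miR-18a-5p: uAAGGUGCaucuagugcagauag
miR-367-3p: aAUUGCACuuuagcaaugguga
miR-363-3p: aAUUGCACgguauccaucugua
miR-19a-3p: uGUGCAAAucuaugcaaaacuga
The miR-17 and miR-20b sequences share the seed AAAGUGC, and the miR-367 and miR-363 sequences share AUUGCAC.

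The values behind these small RNA loci were few. The libraries were made from RNA selected with oligo-dT, so what was sequenced is a precursor, a host transcript or carry-over, not the mature microRNA. Once FPKM was multiplied by relative depth, the values of each of the 8 loci with more than 1 library above 0 were whole multiples of that locus's smallest value, to within 0.0447 of a step. The other 8 loci were above 0 in a single library of 12. That it was an EpiLC library each time is fixed by the rule, since a locus above 0 in an ESC library alone cannot meet the margin. A step was worth 36.2 to 3940 FPKM at the depth of wild-type ESC replicate 1, so a single step in 1 EpiLC library was enough to meet the margin of the rule when the other libraries were at 0. Whether a step is a single fragment is not stated in the files.

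Mir363 had the most steps, 5, 8 and 4 in EpiLC, against 0, 0 and 1 in Sirt1KO Otx2KD, 0, 1 and 0 in Sirt1KO and 1, 3 and 0 in wild-type ESC. Its FPKM were 688, 888 and 667 in EpiLC, and the highest of the ESC libraries was 450.5. Mir363 and the merged locus Mir1940,Snora47, at 1 step in each EpiLC library and 0 in all ESC libraries, were the 2 of 16 whose EpiLC libraries all stood above every ESC library. Mir17 had 1 step in each EpiLC library, against 0, 1 and 1 in Sirt1KO Otx2KD, 1, 0 and 0 in Sirt1KO and 0, 1 and 0 in wild-type ESC, so it met the margin although no library exceeded 1 step. Mir18, the locus of miR-18a, had 1, 2 and 2 steps in EpiLC and its highest value, 3, in a wild-type ESC library. Mir19a had 4, 0 and 2 steps in EpiLC, against 0, 1 and 0 in Sirt1KO Otx2KD, 0, 0 and 3 in Sirt1KO and 0, 0 and 2 in wild-type ESC. Mir302d, Mir20b, Mir135b, Mir1968 and the small nucleolar RNA AF357426 had 1 step in EpiLC replicate 2 alone, which is also the library of greatest relative depth, at 1.33. Mir3097, Mir9-2 and Mir3473d had 1 step in EpiLC replicate 1 alone. Mir367, Snord42a and Snord82 were above 0 in 2, 2 and 3 EpiLC libraries, and each was also above 0 in at least 1 ESC library. Small RNA loci make up 30.2% of members and 2.86% of named loci, and the plot of steps shows how few values carry them.

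**Figure D1:**
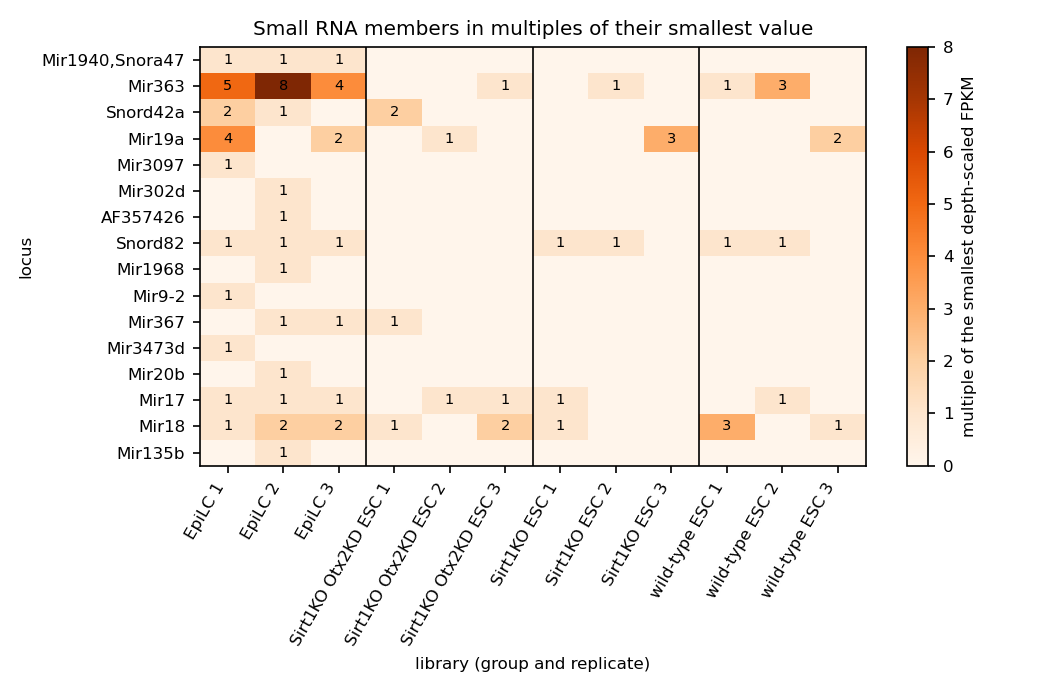
Multiples of the smallest depth-scaled FPKM for the 16 small RNA members (rows) in the 12 libraries (columns, by group). Empty cells are 0. Mir363 reaches 8 in an EpiLC library, and 8 of the loci have a single cell above 0.

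The 37 other genes form the body of the set. Their means in EpiLC ran between 3.42 FPKM (Pdyn) and 429 FPKM (Mkrn1), with a median of 12.9. Of them, 8 exceeded 50 FPKM and 16 were under 10 FPKM in EpiLC, and 13 averaged under 1 FPKM in wild-type ESC. The margin over the highest ESC group ran between 1.51 and 3.12 log2 units, with a median of 1.71. In all 37 the lowest EpiLC library stood above the highest ESC library, by at least 2.38 times (B3gnt7), which the rule largely fixes. The highest ESC group was wild-type ESC for 19 genes, Sirt1KO for 15 and Sirt1KO Otx2KD for 3. Because EpiLC against each ESC group and Sirt1KO against wild-type ESC chose these genes, those differences are given as descriptions and carry no test. In bulk RNA, more cells that express a gene and more RNA of it per cell cannot be told apart.

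**Figure D2:**
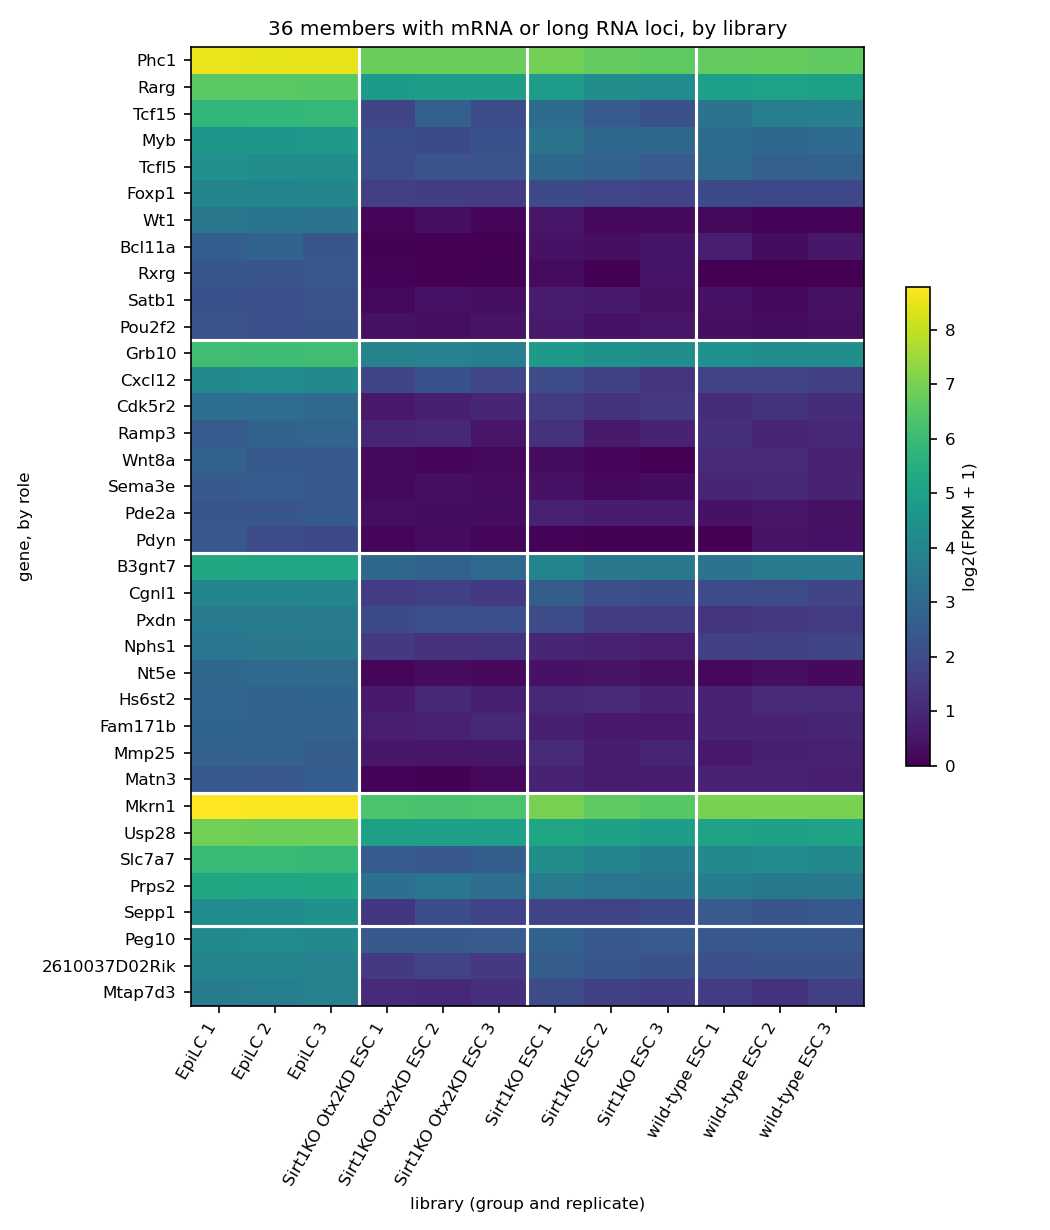
log2(FPKM + 1) of 36 of the 37 genes other than small RNA loci (rows, grouped by role) in the 12 libraries (columns, by group). The EpiLC columns are the highest in every row. In the rows of Slc7a7 and Myb the Sirt1KO Otx2KD columns are the lowest.

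Nearest to the margin of 1.5 were Pxdn at 1.51, Rarg at 1.55 and B3gnt7 at 1.55 inside it. Dtna at 1.498, Phf21a at 1.49 and Pdzk1 at 1.48 fell just outside. Nearest to the cap of 0.3 were Cgnl1 at 0.30 and Cdk5r2 at 0.27 inside it, and Cacng6 at 0.31 and Stk39 at 0.31 outside. Sirt1KO minus wild-type ESC had a median of -0.044 over the 37 genes and ran between -1.04 (Tcf15) and 0.30 (Cgnl1). It was below 0 for 20 of them and below -0.5 for 6, namely Tcf15, Nphs1, Wnt8a, Sema3e, Sepp1 and Rarg.

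**Figure D3:**
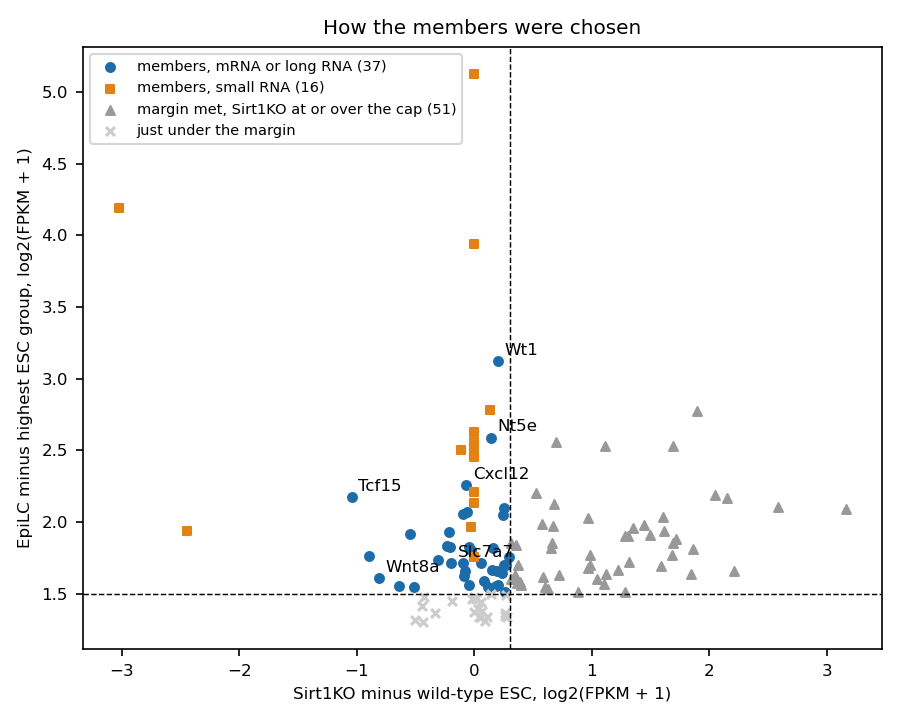
EpiLC minus the highest ESC group mean (vertical) against Sirt1KO minus wild-type ESC (horizontal), both in log2(FPKM + 1). Dashed lines mark 1.5 and 0.3. Members are the circles (37) and squares (16, small RNA loci). Triangles are the 51 loci other than small RNAs that met the margin but not the cap, and crosses are loci just under the margin. Wt1 stands highest among the circles and Tcf15 farthest left.

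Transcription factors and chromatin proteins were the largest role, with 12 genes. Phc1, a subunit of Polycomb repressive complex 1, had 367, 354 and 362 FPKM in EpiLC, against 112, 108 and 108 in Sirt1KO Otx2KD, 121, 101 and 97.5 in Sirt1KO and 101, 105 and 99.8 in wild-type ESC. The 9 ESC libraries lay within a narrow band and the EpiLC libraries were 3.30 times the highest ESC group mean.

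Tcf15, a basic helix-loop-helix factor that primes ESC for differentiation, had 54.4, 55.4 and 57.2 FPKM in EpiLC, against 2.58, 5.49 and 3.15 in Sirt1KO Otx2KD, 7.65, 4.77 and 3.51 in Sirt1KO and 9.23, 12.7 and 13.1 in wild-type ESC. Its EpiLC libraries were close to each other, and both knockout groups lay below wild-type ESC in every library. Foxp1, a forkhead factor, had 15.1, 14.8 and 15.3 FPKM in EpiLC, against 2.14, 2.00 and 1.87 in Sirt1KO Otx2KD, 2.89, 2.67 and 2.45 in Sirt1KO and 2.95, 2.76 and 2.75 in wild-type ESC. A splice form of Foxp1 is known to act in ESC pluripotency, and these gene-level values do not separate splice forms.

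Wt1, a zinc finger factor of the developing kidney and gonad, had the widest margin, 3.12 log2 units. It had 10.5, 9.69 and 9.52 FPKM in EpiLC, against 0.104, 0.268 and 0.0952 in Sirt1KO Otx2KD, 0.457, 0.143 and 0.177 in Sirt1KO and 0.137, 0.0694 and 0.0674 in wild-type ESC, so it was near 0 in all ESC libraries. The retinoid receptors Rarg and Rxrg belong here. Rarg, a receptor for retinoic acid, had 93.3, 93.1 and 90.2 FPKM in EpiLC, against 26.8, 29.7 and 28.5 in Sirt1KO Otx2KD, 27.4, 19.3 and 18.4 in Sirt1KO and 30.1, 32.1 and 30.6 in wild-type ESC. Rxrg, a partner of such receptors, had 4.10, 3.92 and 4.27 FPKM in EpiLC, against 0.0511, 0 and 0.0475 in Sirt1KO Otx2KD, 0.192, 0 and 0.407 in Sirt1KO, and was listed at 0 in all 3 wild-type ESC libraries. Myb, a factor best known from blood progenitors, and Tcfl5, a helix-loop-helix factor of the germ line, had 24.3 to 26.2 and 18.6 to 21.1 FPKM in the EpiLC libraries. Bcl11a, Satb1 and Pou2f2, known from lymphoid cells among others, were expressed at a lower level, with 3.44 to 6.03 FPKM in EpiLC and under 1 FPKM in all ESC libraries.

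The next 8 genes encode ligands, receptors and signalling proteins. Cxcl12, the chemokine that binds Cxcr4, had 17.4, 18.5 and 17.6 FPKM in EpiLC, against 2.57, 3.67 and 2.66 in Sirt1KO Otx2KD, 3.08, 2.30 and 1.52 in Sirt1KO and 2.53, 2.51 and 2.16 in wild-type ESC. Wnt8a, a Wnt ligand, had 5.72, 4.67 and 4.48 FPKM in EpiLC, against 0.171, 0.0979 and 0.139 in Sirt1KO Otx2KD, 0.215, 0.126 and 0 in Sirt1KO and 1.05, 1.07 and 0.740 in wild-type ESC. Wild-type ESC were the highest ESC libraries for Wnt8a, and the same held for Sema3e, a semaphorin guidance ligand, with 0.819 to 1.02 FPKM there and 0.136 to 0.340 in both knockout groups. Grb10, an imprinted adaptor that dampens insulin receptor signalling, had 66.9, 66.5 and 67.2 FPKM in EpiLC, against 14.2, 13.8 and 12.9 in Sirt1KO Otx2KD, 26.0, 21.6 and 19.3 in Sirt1KO and 20.9, 17.8 and 19.5 in wild-type ESC. Cdk5r2 (an activator of Cdk5), Ramp3 (a partner of the calcitonin-like receptor), Pde2a (a cyclic nucleotide phosphodiesterase) and Pdyn (the precursor of dynorphin peptides) completed this role, with 2.87 to 8.34 FPKM in the EpiLC libraries.

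The cell surface, its junctions and the matrix took 9 genes. Nt5e (CD73), the enzyme at the surface that makes adenosine from AMP, had the next widest margin after Wt1, 2.59 log2 units, with 6.66, 6.96 and 7.32 FPKM in EpiLC, against 0.111, 0.229 and 0.163 in Sirt1KO Otx2KD, 0.335, 0.392 and 0.253 in Sirt1KO and 0.146, 0.297 and 0.173 in wild-type ESC. B3gnt7, a glycosyltransferase that extends keratan sulfate chains, was the most abundant of them, at 35.7 ± 1.35 FPKM in EpiLC (SD, n = 3). Nphs1 (nephrin, of the kidney slit diaphragm) had 10.004, 10.3 and 10.8 FPKM in EpiLC, against 1.80, 1.38 and 1.46 in Sirt1KO Otx2KD, 0.922, 0.800 and 0.688 in Sirt1KO and 2.20, 2.28 and 2.59 in wild-type ESC. Its 3 ESC groups did not overlap one another. Cgnl1 (a junction protein), Pxdn (a peroxidase that crosslinks collagen IV), Hs6st2 (a heparan sulfate sulfotransferase), Mmp25 (a membrane-anchored matrix metalloproteinase), Matn3 (a cartilage matrix protein) and Fam171b had 4.22 to 15.6 FPKM in the EpiLC libraries.

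Another 5 genes act in transport, metabolism and protein turnover, among them some of the most abundant. Mkrn1, a ubiquitin ligase, had 443, 414 and 430 FPKM in EpiLC, against 78.5, 76.9 and 77.6 in Sirt1KO Otx2KD, 126, 96.0 and 90.5 in Sirt1KO and 128, 128 and 129 in wild-type ESC. Usp28, a deubiquitinase, averaged 115.9 ± 2.51 FPKM in EpiLC, 30.5 ± 0.337 in Sirt1KO Otx2KD, 31.9 ± 2.80 in Sirt1KO and 32.6 ± 0.824 in wild-type ESC (SD, n = 3 each). Slc7a7, the light chain of a transporter of cationic amino acids, had 59.6, 59.9 and 57.2 FPKM in EpiLC, against 4.91, 4.28 and 5.28 in Sirt1KO Otx2KD, 19.3, 14.1 and 12.2 in Sirt1KO and 16.6, 17.7 and 17.5 in wild-type ESC. Prps2, which makes the ribose precursor of nucleotides, and Sepp1, a selenium carrier, had 36.2 to 37.2 and 18.3 to 21.1 FPKM in the EpiLC libraries. The remaining 3 genes, Peg10 (an imprinted gene derived from a retrotransposon), Mtap7d3 and 2610037D02Rik, had 12.3 to 18.2 FPKM in EpiLC.

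Knockdown of Otx2 in Sirt1KO cells gave a contrast that the rule did not use directly, although it shares the Sirt1KO libraries that the cap refers to and the Sirt1KO Otx2KD libraries that the margin refers to. The question it bears on is which of these genes differ between Sirt1KO ESC with and without the Otx2 knockdown. An effect of lower Otx2 and another difference between the cells of these groups cannot be told apart. Of the 53 members, 45 passed the filter on low values (FPKM of at least 1 in at least 3 libraries), namely the 37 genes and 8 small RNA loci. With limma and Benjamini-Hochberg adjustment over 12317 loci, 16 of the 45 were lower in Sirt1KO Otx2KD than in Sirt1KO (35.6%, against 31.5% of all loci tested), and 3 were higher (6.67%, against 31.1%). These shares are descriptions. The 8 small RNA loci rest on a few steps, the margin limits how high a member can stand in Sirt1KO Otx2KD, and 15 of the 37 genes did not reach 1 FPKM in 3 of the 6 libraries compared and passed the filter through other libraries. Of the other 22 genes, 12 were lower and 3 were higher. All 19 calls fell on the 37 genes, whose median log2 fold change was -0.20, beside -0.015 over all loci tested.

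**Figure D4:**
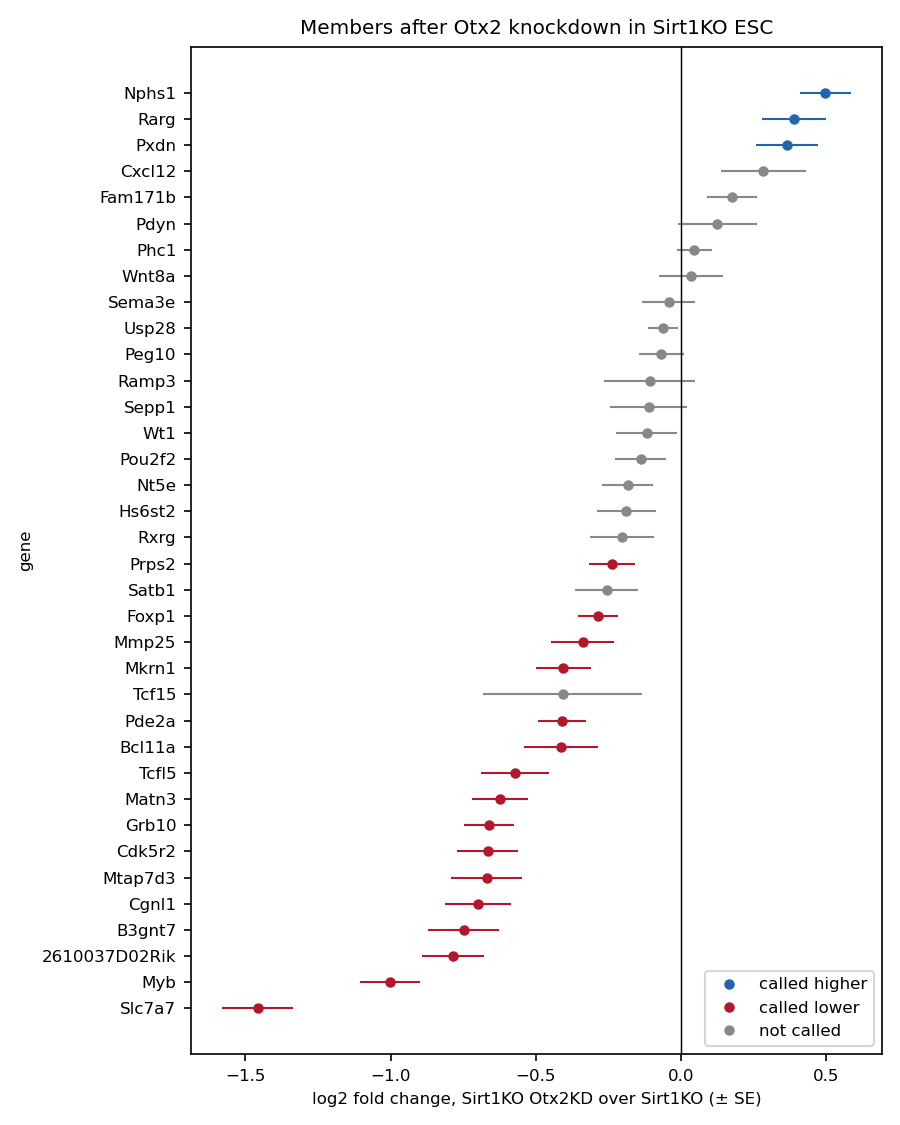
log2 fold change of Sirt1KO Otx2KD over Sirt1KO for 36 of the 37 genes, with the standard error from limma as bars. Red points were called lower (16), blue points higher (3) and grey points were not called (17). Slc7a7 lies farthest to the left at -1.46 and Nphs1 farthest to the right at 0.50.

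Slc7a7 fell the most, by 1.46 ± 0.12 on the log2 scale (SE, limma, Benjamini-Hochberg adjusted p = 6.39e-07), and its 3 Sirt1KO Otx2KD libraries lay below all other libraries. Myb followed, with 3.32, 2.96 and 3.68 FPKM in Sirt1KO Otx2KD, against 9.45, 6.86 and 6.81 in Sirt1KO, a log2 fold change of -1.001 ± 0.10 (limma, Benjamini-Hochberg adjusted p = 1.55e-06). The long noncoding RNA 2610037D02Rik (-0.78), B3gnt7 (-0.75), Cgnl1 (-0.70), Mtap7d3 (-0.67), Cdk5r2 (-0.67), Grb10 (-0.66) and Tcfl5 (-0.57) fell by more than 0.5. Mkrn1 (-0.41), Foxp1 (-0.29) and Prps2 (-0.24) fell by less. Matn3 (-0.62), Bcl11a and Pde2a (each -0.41) and Mmp25 (-0.34) were also called lower, but they are 4 of the 15 genes that passed the filter through libraries outside the comparison, and they have no value when only the groups compared are fitted. On this scale a gene near 0 FPKM in Sirt1KO, such as Wt1, Rxrg or Nt5e, has little room to fall, and none of these was called in the main fit. Under alternative settings Nt5e was called lower in 3, at -0.68 with a pseudocount of 0.1. Rxrg was called lower in 1, at -0.33 without Sirt1KO replicate 2.

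The 3 genes that rose were Nphs1, by 0.50 ± 0.09 (SE, limma, Benjamini-Hochberg adjusted p = 0.000212), Rarg, by 0.39 ± 0.11 (adjusted p = 0.00948), and Pxdn, by 0.37 ± 0.11 (adjusted p = 0.00831). The call on Rarg was lost when only the groups compared were fitted (limma, Benjamini-Hochberg adjusted p = 0.0545). Nphs1 and Rarg are among the genes that were lower in Sirt1KO than in wild-type ESC, and in Sirt1KO Otx2KD both stood between the other 2 ESC groups. For Rarg the groups overlapped, since Sirt1KO replicate 1, at 27.4 FPKM, exceeded the lowest Sirt1KO Otx2KD library, at 26.8. Pxdn had 2.94, 3.44 and 3.39 FPKM in Sirt1KO Otx2KD, against 2.99, 2.05 and 1.96 in Sirt1KO and 1.56, 1.78 and 1.94 in wild-type ESC. Fibroblast and feeder cell markers moved with this contrast: their summed level over 20 genes was 614 to 631 FPKM in Sirt1KO Otx2KD, against 279 to 299 in Sirt1KO, and 18 of the 20 were called higher and 1 lower. In wild-type ESC the sum was 544 to 599 FPKM and in EpiLC 367 to 383, so Sirt1KO was the lowest group for these markers. Under 1 FPKM in all libraries of the group were 0 of these markers in Sirt1KO Otx2KD, 9 in Sirt1KO, 1 in wild-type ESC and 1 in EpiLC. None is a member, and their part in the rise of Pxdn, a matrix gene, or of the other genes was not tested.

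**Figure D5:**
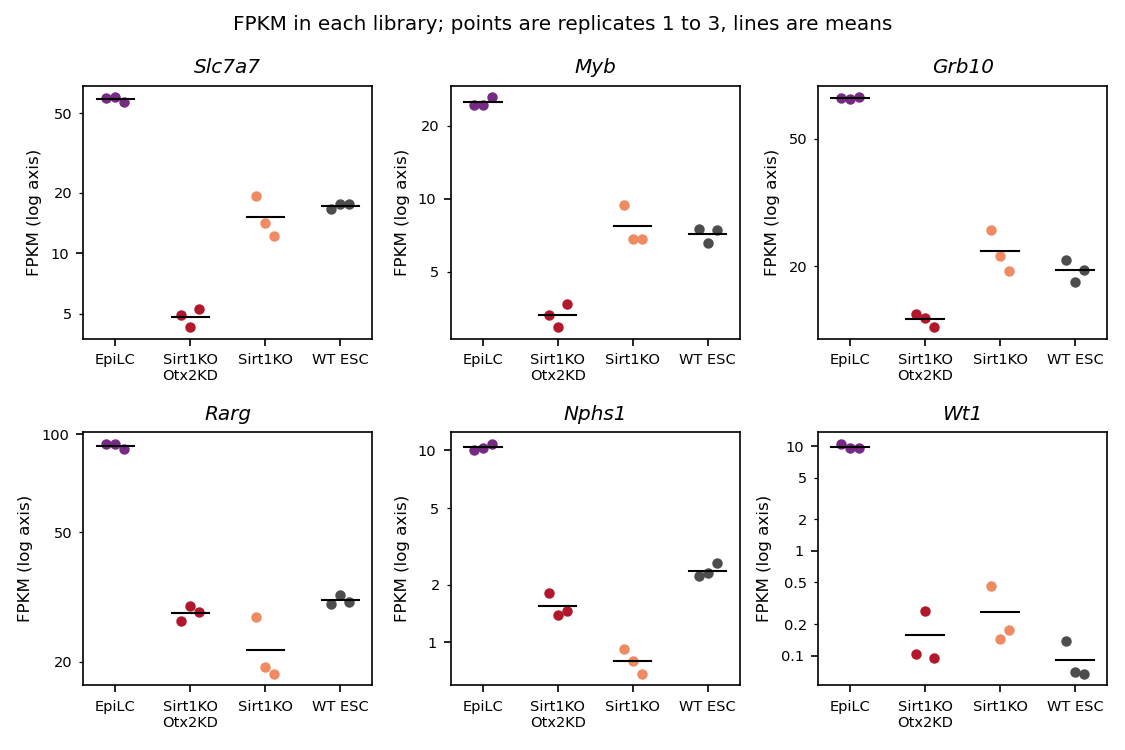
FPKM in each library (log axis) for 6 members, with points for replicates 1 to 3 and a line at the group mean. Slc7a7, Myb and Grb10 were lower in Sirt1KO Otx2KD than in Sirt1KO, Rarg and Nphs1 were higher, and Wt1 was near 0 in all ESC libraries. Sirt1KO replicate 1 is the leftmost Sirt1KO point and the highest of its group in each panel.

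The calls by role are set beside 31.5% lower and 31.1% higher over all loci, and the roles were assigned after the values were seen. Of 12 transcription factors and chromatin proteins, 4 fell and 1 rose (Rarg). Of 8 signalling genes 3 fell, and of 9 surface and matrix genes 4 fell and 2 rose. Of 5 transport, metabolism and turnover genes 3 fell, and of the remaining 3 genes 2 fell. Among the falls, those of Bcl11a, Pde2a, Mmp25 and Matn3 are of genes that passed the filter through libraries outside the comparison. The totals also hold genes near 0 FPKM in Sirt1KO, such as Wt1, Rxrg and Nt5e. Nothing is therefore read from the counts by role. Several of the genes with the highest EpiLC levels were not called in this contrast, with log2 fold changes of 0.046 for Phc1 and -0.062 for Usp28. Tcf15 had -0.41 ± 0.27 (limma, Benjamini-Hochberg adjusted p = 0.227), with libraries that overlapped.

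The Sirt1KO libraries were not alike for these genes. Sirt1KO replicate 1 was the highest of its group for 31 of the 37 genes (83.8%), against 35.6% of all loci tested. The same held for 47 of the 51 loci other than small RNAs that met the margin but not the cap (92.2%). Replicate 1 was also the highest of its group for Otx2, with 34.2 FPKM, against 24.6 and 22.2 in replicates 2 and 3, and for the primed marker Dnmt3b, a DNA methyltransferase, with 143 FPKM, against 96.4 and 97.6. Without that library, 14 members were lower and 5 were higher in Sirt1KO Otx2KD than in Sirt1KO. Mmp25 and Prps2 then lost their calls, and Cxcl12 (0.45) and Phc1 (0.14) gained one. All 19 called genes kept their direction without it. Slc7a7 was then at -1.28, Myb at -0.86, B3gnt7 at -0.59, Grb10 at -0.55 and Mkrn1, which moved the most in proportion, at -0.26, and the median over the 37 genes was -0.16.

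Against wild-type ESC, Sirt1KO Otx2KD cells were lower for 20 of the 45 members tested (44.4%, against 26.8% of all loci) and higher for 1, Pxdn (2.22%, against 27.1%), by limma with Benjamini-Hochberg adjustment. The rule used the means of both groups to choose the members, so nothing is read from these shares. Of the 22 genes that reached 1 FPKM in 3 of the 6 libraries compared, 16 were lower and 1 was higher. The median over the 37 genes was -0.33 log2 units. Both comparisons share the Sirt1KO Otx2KD libraries, and 14 of the 45 members tested were lower in both, beside 1426 of 12317 loci (11.6%). Bcl11a and Matn3 are among the 14 and passed the filter through libraries outside each comparison. The greatest falls were those of Slc7a7 (-1.65), Tcf15 (-1.45), Myb (-0.92), Wnt8a (-0.78), Mkrn1 (-0.72), Matn3 (-0.71), Sema3e (-0.68) and Sepp1 (-0.66), of which Wnt8a, Matn3 and Sema3e passed the filter through libraries outside the comparison. Tcf15, Wnt8a, Sema3e, Sepp1 and Nphs1 were lower than in wild-type ESC and had no lower call against Sirt1KO. Sirt1KO Otx2KD was the lowest of the 3 ESC groups for 25 of the 37 genes. The rule used all 3 group means and the share over all loci was not computed, so nothing is read from this count.

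Another set that the margin gives, the 58 loci that were also at least 0.3 higher in Sirt1KO than in wild-type ESC, differs from the members by the cap alone. It includes Otx2 itself, Dnmt3b, Dnmt3a, Pou3f1, Utf1, Pim2 and Fzd7. Of these 58, 46 were lower in Sirt1KO Otx2KD than in Sirt1KO (79.3%, limma with Benjamini-Hochberg adjustment) and the other 12 were not called. The median over its 51 loci other than small RNAs was -1.14, beside -0.20 for the 37 genes. Since these loci were chosen for a high level in Sirt1KO, and both sets share the Sirt1KO libraries with the contrast, the choice itself pushes the values apart and the gap is given as a description. Against wild-type ESC, 10 of the 58 were lower in Sirt1KO Otx2KD and 12 were higher.

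The choice of the genes was repeated with a replicate left out of every group, and the left-out libraries were then read. Chosen on replicates 2 and 3, 49 genes other than small RNA loci came out, and 31 of them met the margin in the libraries of replicate 1, with 48 highest in EpiLC. Chosen without replicate 2, 29 of 36 met the margin in it, and chosen without replicate 3, 29 of 31 did. The cap was met in the left-out libraries by 29 of 49, 34 of 36 and 27 of 31. For small RNA loci the margin was met by 2 of 16, 1 of 11 and 2 of 21.

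Retinoid, imprinted and Wnt genes were looked at as wider lists. The members are left out of these counts, since EpiLC against wild-type ESC chose them, and their log2 fold changes are descriptions. Of 12 other retinoic acid pathway genes tested, 2 were higher and 5 lower in EpiLC than in wild-type ESC (limma, Benjamini-Hochberg), where 35.8% and 38.8% of all loci were. The 2 that were higher were Dhrs3 (0.53) and Aldh1a2 (0.30). Among the 5 lower, Rara, another retinoic acid receptor, had a log2 fold change of -0.44 and Crabp2, a retinoic acid carrier, -0.76. The members Rarg and Rxrg had 1.55 and 2.35. Of 19 other imprinted genes tested, 9 were higher and 7 lower in EpiLC than in wild-type ESC. The fetal growth genes Igf2 (-0.80) and H19 (-0.97) were among the 7, beside 1.74 and 1.81 for the members Grb10 and Peg10. In Sirt1KO Otx2KD, against Sirt1KO, Igf2 and H19 rose by 2.97 and 2.64 while Grb10 fell by 0.66. Nnat (-1.99), Phlda2 (-1.04) and Mest (-0.95) also fell. Of the 21 imprinted genes tested, members included, 7 were called higher and 9 lower in that contrast, where 31.1% and 31.5% of all loci were. Of 38 other Wnt pathway loci tested, which hold 36 distinct genes because Wnt5b has 3 loci, 19 were higher and 13 lower in EpiLC than in wild-type ESC. The receptor Fzd7 (3.67) and the transcription factor Lef1 (1.02) were among those higher, beside 1.61 for the member Wnt8a. Among those lower were Notum (-3.86), Wnt7b (-2.49), Fzd10 (-2.47), Sp5 (-1.99) and Axin2 (-0.80). Of 33 other primed and formative transcription factors tested, 19 were higher in EpiLC than in wild-type ESC and 12 lower. Of the 19, 4 belong to the set that was also higher in Sirt1KO (Etv4, Otx2, Pou3f1 and Sox4).

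On the genome, 5 of the 37 genes lie on chromosome 6 (13.5%, beside 4.67% of loci tested), namely Phc1, Mkrn1, Cxcl12, Foxp1 and Peg10, and 4 on chromosome X (10.8%, beside 3.43%). The median locus of the 37 genes spans 36055 bases, beside 24206 bases for the loci tested that are not small RNAs.

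Promoters of 250 bases before to 50 after the start were taken from RefSeq (GRCm38.p6), where 30 of the 37 genes had an entry, with 52 promoters. Slc7a7, Pde2a and Satb1 gave 5 promoters each, so shares of promoters are not shares of genes. The median GC content of the 52 was 60.7%, against 52.7% over all 32851 promoters. It was 59.5% in the set that was also higher in Sirt1KO. The core motif of OTX2, TAATCC, was found on either strand in 1 of the 52 (1.92%, against 7.06% of all promoters), that of Phc1. In the set that was also higher in Sirt1KO it was found in 5 of 46 promoters (10.9%). The TCF/LEF core CTTTGAT was found in 4 of 52 (7.69%, against 3.73%), those of Cdk5r2, Cxcl12, Mkrn1 and Phc1. The ETS core CCGGAAG was in 2 (3.85%, against 8.86%), the nuclear receptor half-site AGGTCA in 6 (11.5%, against 16.3%), and the octamer ATGCAAAT in 0 of 52 (1.74% of all promoters). In the set that was also higher in Sirt1KO, the ETS core was in 4.35% and the half-site in 10.9%. The TCF/LEF core and the octamer were in 2.17% each there. The promoters of Phc1 and Cxcl12 are shown, from 5′ to 3′ on the gene's strand, because Phc1 holds the single OTX2 core and both hold a TCF/LEF core. Capitals mark those letters, which read GGATTA and ATCAAAG where the motif is on the opposite strand.
Phc1, chr6:122340178-122340477, minus strand: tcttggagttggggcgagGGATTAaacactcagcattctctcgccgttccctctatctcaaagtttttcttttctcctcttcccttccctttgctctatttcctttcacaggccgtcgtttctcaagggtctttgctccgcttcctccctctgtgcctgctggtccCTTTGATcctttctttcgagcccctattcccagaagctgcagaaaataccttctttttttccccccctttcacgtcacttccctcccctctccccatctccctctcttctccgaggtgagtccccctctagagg
Cxcl12, chr6:117168285-117168584, plus strand: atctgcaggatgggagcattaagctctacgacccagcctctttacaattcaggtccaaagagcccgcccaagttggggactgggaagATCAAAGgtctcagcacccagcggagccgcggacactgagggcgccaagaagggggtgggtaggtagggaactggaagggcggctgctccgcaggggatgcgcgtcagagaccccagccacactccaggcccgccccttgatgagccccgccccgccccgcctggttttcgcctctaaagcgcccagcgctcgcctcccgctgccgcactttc
Such matches are letters in a short window and do not show that a factor binds there. Phc1 had a log2 fold change of 0.046 in Sirt1KO Otx2KD over Sirt1KO and was not called in the main fit. Without Sirt1KO replicate 1 it was called higher, at 0.14, and without Sirt1KO replicate 3 it stood at -0.013. Whether OTX2 acts on Phc1 was not tested.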

How the data were processed

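Per the submitters' processing notes, the reads were processed with TopHat, Cufflinks and Cuffdiff on mm9. No versions are given in the sources used here. The authors deposited FPKM for each locus, and how library sizes were set is not stated. Coordinates in mm9 are as the files give them. Each file holds 27914 loci, of which 23136 are named. Values were used as log2(FPKM + 1). Group means gave the members. The 4 groups were fitted together in limma 3.58.1 (R 4.3.3, trend and robust options, 8 residual degrees of freedom), over the 12317 named loci outside chromosome Y that reached 1 FPKM in 3 or more libraries. The threshold was a Benjamini-Hochberg adjusted p of 0.05. The script was tested on simulated data. Fold changes on log2(FPKM + 1) understate changes of low genes.

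The members, the gene lists and the tests were chosen with earlier results of these data known. Genes were named by rule: members of the lists, the 15 largest margins, the 10 highest EpiLC levels, the loci nearest the thresholds and up to 6 called genes in each direction. The other members are also named, except 1 gene that is counted but not reported here, and roles were assigned after the values were seen. No libraries had identical values. Same-numbered replicates of Sirt1KO Otx2KD and Sirt1KO had correlations of -0.11, -0.03 and -0.02 between their deviations from the group means, so the numbers were not taken as pairs. Alternatives changed the thresholds, pseudocount, scaling, filter, samples fitted and libraries left out.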

Additional observations from a re-analysis of the deposited data

Results flagged for a closer look

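Among the 4775 loci without a gene name outside chromosome Y, which the rule leaves out, 46 met both the margin and the cap. Of these, 39 had all EpiLC libraries above all ESC libraries, and 20 span at least 300 bases. The margin that chose them favours such a lack of overlap, and the share over all unnamed loci was not computed. Nothing is therefore read from the 39. They are given as a count only, since the files pair them with no gene.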

How the results depend on the processing

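The number of members followed the thresholds and the pseudocount. A margin of 1 gave 175 members (159 other than small RNA loci), a margin of 2 gave 21 (8), a cap of 0 gave 24 (20) and a pseudocount of 0.1 gave 140 (124), of which 42 (26) were shared with the 53 (37). With a pseudocount of 0.1, small differences between low values count for more. Scaling by median ratios, quantile normalization and removal of chromosome medians gave 53, 54 and 54. Leaving out a replicate number gave 47 to 65 members (31 to 49 other than small RNA loci). Leaving out single libraries, an alternative chosen after seeing the data, gave 49 to 64 members.

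For Sirt1KO Otx2KD against Sirt1KO, leaving out single libraries gave 3 to 5 members higher and 14 to 20 lower. Leaving out Sirt1KO replicate 1 gave 5 higher. Fitting only the groups compared gave 2 higher and 12 lower, where the filter left 22 of the 37 genes, and Rarg then missed the threshold (limma, Benjamini-Hochberg adjusted p = 0.0545). In the comparison with wild-type ESC that fit called 2 higher. With the replicate block 3 members were higher and 16 lower, and no call on a member changed. Of the 19 genes called, 16 kept their call under every alternative in which they were tested, and Rarg, Mmp25 and Prps2 lost it in at least 1. Of the 18 genes not called, 15 were called or turned sign under at least 1 alternative and 3 under none. Satb1 was called lower under 6 alternatives, Nt5e under 3 and Hs6st2 under 2. Uncalled genes turned sign when a library was left out: Ramp3 (-0.25 to 0.055, with 0.033 without Sirt1KO Otx2KD replicate 3), Sepp1 (-0.28 to 0.064), Wnt8a (-0.042 to 0.098), Sema3e (-0.10 to 0.017), Peg10 (-0.14 to 0.018), Phc1 (-0.013 to 0.14) and Usp28 (-0.12 to 0.0029). The cause was not tested.

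Without counts, depth is known only relative to a library, and small RNA loci and genes near 0 FPKM in ESC are the least precise values.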
